A study of Mus musculus with 8 samples.

Results

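Epithelial-mesenchymal transition (EMT) was followed here through 10 genes, chosen by name out of the 36333 genes of the expression table: the transcription factors Snai1, Snai2, Twist1, Twist2, Zeb1 and Zeb2, the cadherins Cdh1 and Cdh2, and the mesenchymal genes Vim and Fn1. All 10 are in the table, and 9 of them passed the filter on low values that is used for testing. RNA from whole ventral prostate lobes was sequenced with 1 library per mouse, from 4 hSKP2-KI and 4 wild type (WT) mice, all on the FVB/N background and all 12 months old. The hSKP2-KI mice carry the coding sequence of human SKP2 behind a P2A peptide in exon 1 of the endogenous mouse probasin gene, placed there by CRISPR/Cas9. Knock-in males were born to heterozygous females mated to FVB/N males, and WT mice lack the insertion. The study asked which genes and pathways change in the prostate when human SKP2 is expressed.

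The model has limits that bear on these genes. The probasin promoter is active in prostate epithelium, whereas each library holds RNA of the whole lobe with its stroma, vessels and immune cells. In such bulk samples, fewer cells of a type and less RNA per cell cannot be told apart. The founder line behind the sequenced mice is not given in the sources used here, and the insertion lies in a gene that is itself abundant in the WT lobe. Mouse Skp2 was listed at 37.3 to 60.6 TPM in the hSKP2-KI libraries and at 1.05 to 2.27 TPM in WT, and Pbsn at 93.0 to 173.8 TPM against 3980 to 9232 TPM, so no library went against its label. How reads of the human sequence enter the mouse Skp2 value is not given in the sources used here. TPM divides reads by transcript length and scales each library to the same total of 1000000, and the number of reads behind a value is unknown. The 3 most abundant genes, Sbp, Spink1 and Sbpl, took 40.4 to 45.9% of the TPM in WT and 32.1 to 34.3% in hSKP2-KI libraries, and the median log2 fold change (hSKP2-KI minus WT) over the 13080 tested genes was 0.23. For this reason the fold changes of the 9 tested genes of the 10 are given both on TPM as deposited and after median-ratio scaling, which brings that median to -0.01. For other genes, a value with no scale named is on TPM as deposited.

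In EMT, an epithelial cell loses its junctions and its polarity and takes on the form and motility of a mesenchymal cell. Factors of the Snail, Twist and Zeb families drive the program and, in many epithelia, repress the E-cadherin gene, while vimentin and fibronectin go up. The exchange of E-cadherin for N-cadherin in such cells is known as the cadherin switch. In the prostate these factors, vimentin and fibronectin are also normal products of stromal cells such as fibroblasts, and E-cadherin holds the luminal and basal epithelium together.

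Of the 9 tested genes, 7 were higher in hSKP2-KI than in WT prostates and 0 were lower (limma, Benjamini-Hochberg adjusted p under 0.05 over all 13080 genes): Snai2, Twist1, Zeb1, Zeb2, Cdh1, Vim and Fn1. The background is large, since 32.7% of all tested genes were called higher and 1.23% lower on this scale. The median log2 fold change of the 9 genes was 0.58, beside 0.23 over all tested genes. After median-ratio scaling 2 of the 9 genes, Zeb1 and Fn1, were called higher, against 6.92% of all tested genes, and the median of the 9 was 0.35. Quantile normalization and TPM rescaled without the 20 most abundant genes each left 1 of the 9, Fn1, called higher, against 5.42 and 6.79% of all tested genes, and none lower, against 4.65 and 3.32%. Only Fn1 was called on TPM as deposited and under all 3 other scalings tried, as were 4.83% of the 13060 genes tested in all of them. Each of the 9 genes was above 1 TPM in all 8 libraries, so none of them passed the filter through its level in 1 genotype alone.

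**Figure D1:**
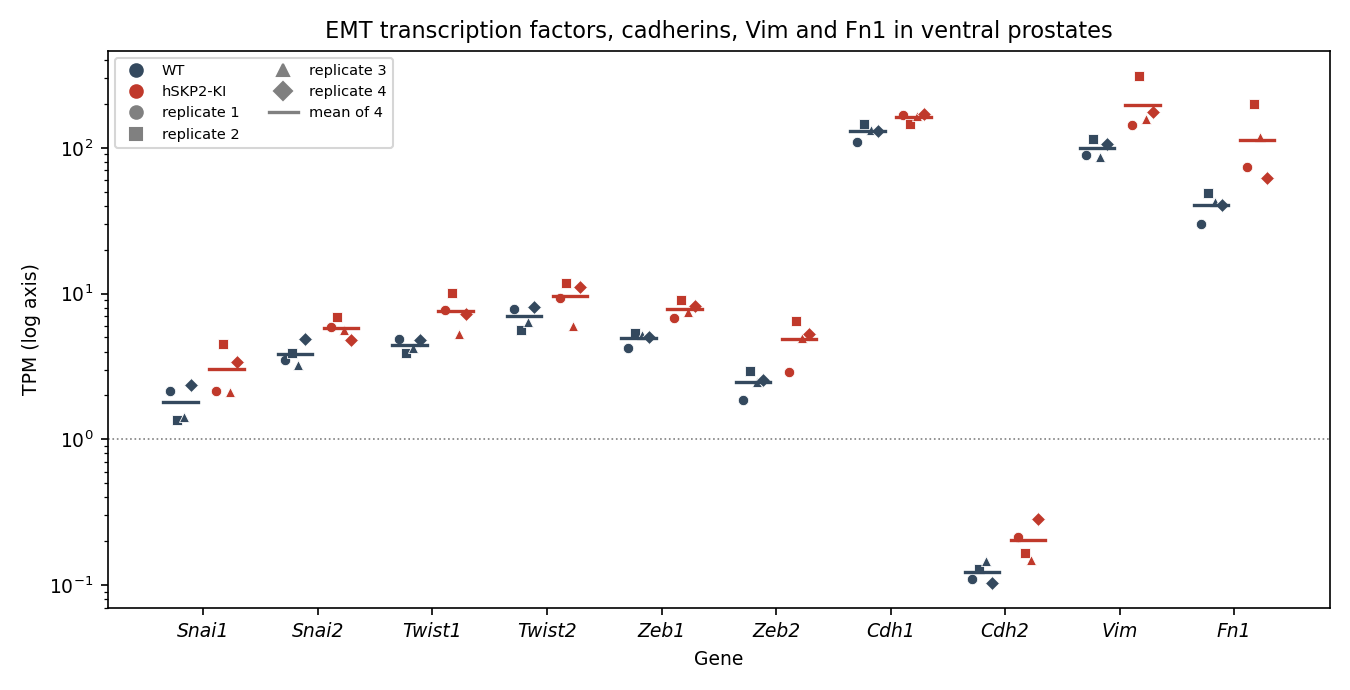
TPM of the 10 genes in each of the 8 libraries (vertical log axis in TPM, genes side by side), with a point per mouse, a shape per replicate number, a line for the genotype mean and a dotted line at 1 TPM. Vim, Fn1, Zeb1 and Twist1 are higher in all 4 hSKP2-KI libraries than in any WT library, as are 34% of all tested genes. Cdh1 is above 100 TPM everywhere, and Cdh2 stays under 0.3 TPM.

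In WT prostates the 10 genes covered a wide range of levels per transcript length. Cdh1 led with a mean of 129.6 ± 14.4 TPM (SD, n = 4), at percentile 98.2 of all genes in the table, and its range overlapped that of Vim at 98.9 ± 13.5 TPM (SD, n = 4). Fn1 followed at 40.5 ± 8.08 TPM (SD, n = 4), apart from both of its neighbours. The 6 transcription factors lay lower, in the order Twist2, Zeb1, Twist1, Snai2, Zeb2 and Snai1, from 7.0 down to 1.81 TPM, with overlapping ranges between Zeb1 and Twist1, between Twist1 and Snai2, and between Zeb2 and Snai1. Cdh2 came last at 0.122 TPM. In hSKP2-KI prostates the order was the same except that the mean of Vim stood above that of Cdh1, and the ranges of these 2 genes overlapped. Only 2 neighbouring pairs were then apart, Fn1 above Twist2 and Snai1 above Cdh2.

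Sequence of the start regions is given for Snai1 and Twist1, since EMT factors act through E-boxes, and the first of these windows holds such a motif while the other does not. Start regions of 5 of the 10 genes, namely Snai1, Twist1, Twist2, Zeb2 and Vim, were read from the RefSeq promoter table (GRCm38.p6). Each sequence below covers the 250 bases before the start, 5′ to 3′ on the plus strand, at chr2:167537945-167538194 for Snai1 and chr12:33957421-33957670 for Twist1. Capitals mark matches, on either strand, to CAGGTG (the E-box bound by Snail and Zeb zinc fingers, CACCTG on the other strand), GGGCGG (the GC box, CCGCCC on the other strand) and TATAAA (the TATA box).
Snai1: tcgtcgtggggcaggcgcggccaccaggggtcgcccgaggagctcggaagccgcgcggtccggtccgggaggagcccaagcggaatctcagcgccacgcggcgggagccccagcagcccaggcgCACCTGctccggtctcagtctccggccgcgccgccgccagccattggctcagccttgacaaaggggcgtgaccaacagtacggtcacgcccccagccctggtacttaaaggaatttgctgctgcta
Twist1: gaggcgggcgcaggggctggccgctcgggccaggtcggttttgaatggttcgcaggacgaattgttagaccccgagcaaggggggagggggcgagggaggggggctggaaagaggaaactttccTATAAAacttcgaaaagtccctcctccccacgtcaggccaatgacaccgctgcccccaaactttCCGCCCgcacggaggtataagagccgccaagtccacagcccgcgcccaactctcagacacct
The Snai1 window held 1 CACCTG, at 126 to 121 bases before the start, and no GC box or TATAAA. The Twist1 window held no E-box of the general form CANNTG, which includes CAGGTG, but had TATAAA at 126 to 121 and CCGCCC at 62 to 57 bases before the start. Among all 32817 promoter windows of that length in the table, 17.2% held CAGGTG, 66.2% CANNTG, 32.7% GGGCGG and 12.4% TATAAA. These are matches of letters only.

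Snai1 (Entrez 20613; GRCm38.p6, chromosome 2, 167538195 to 167542814), which encodes the zinc finger repressor Snail, had TPM values of 2.15, 4.51, 2.11 and 3.39 in hSKP2-KI replicates 1 to 4 and 2.14, 1.35, 1.43 and 2.34 in WT replicates 1 to 4. The genotypes overlapped, with 2 of 4 hSKP2-KI libraries above every WT library. The log2 fold change on the log2(TPM + 1) scale was 0.50 (SE 0.20, 95% interval 0.05 to 0.94, limma adjusted p = 0.0770), and it was 0.31 after median-ratio scaling (interval -0.15 to 0.76). Snai2 (Entrez 20583; chromosome 16, 14705852 to 14709395), which encodes Slug, a close relative of Snail known from neural crest and from basal epithelium, had 5.89, 6.87, 5.62 and 4.79 TPM in hSKP2-KI and 3.48, 3.93, 3.24 and 4.84 TPM in WT libraries. Here 3 of 4 hSKP2-KI libraries were above all WT libraries, and replicate 4 lay just under WT replicate 4. Snai2 was called higher at a log2 fold change of 0.48 (SE 0.14, limma adjusted p = 0.0223). The call rested on single libraries: the adjusted p was 0.0604 without hSKP2-KI replicate 2, 0.0532 without WT replicate 1, 0.0645 without WT replicate 3 and 0.0562 with no filter on low values, and it was 0.201 after median-ratio scaling (log2 fold change 0.26, interval -0.01 to 0.53). Snai1 made up 26.7 to 41.4% of the summed Snai1 and Snai2 TPM in hSKP2-KI and 25.5 to 38.0% in WT libraries, so the balance of the pair overlapped. Their sum was higher in all 4 hSKP2-KI libraries on TPM as deposited, a pattern that 34% of single tested genes shared. The sum was not compared after median-ratio scaling.

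Twist1 (Entrez 22160; chromosome 12, 33957671 to 33959831), a basic helix-loop-helix factor of mesoderm and mesenchyme, measured 7.77, 10.2, 5.30 and 7.24 TPM in hSKP2-KI and 4.87, 3.91, 4.22 and 4.82 TPM in WT prostates. Every hSKP2-KI library was above every WT library, a pattern that 34% of tested genes shared on TPM as deposited. The log2 fold change was 0.63 (SE 0.16, limma adjusted p = 0.0144). After median-ratio scaling the genotypes overlapped and the value was 0.40 (interval 0.04 to 0.77, limma adjusted p = 0.144). Twist2 (Entrez 13345; chromosome 1, 91801461 to 91848034), its paralog in dermis and other connective tissue, had 9.28, 11.8, 5.98 and 11.1 TPM in hSKP2-KI and 7.84, 5.66, 6.37 and 8.14 TPM in WT libraries. Replicate 3 of hSKP2-KI fell inside the WT range, and the log2 fold change of 0.37 (SE 0.19, interval -0.04 to 0.78) did not pass the test (limma adjusted p = 0.132). It passed when that library was left out (0.56, limma adjusted p = 0.0202), and it was 0.13 after median-ratio scaling (interval -0.30 to 0.57). Twist1 was 39.4 to 47.0% of the summed Twist TPM in hSKP2-KI and 37.2 to 40.9% in WT libraries, with overlap. How reads that match both paralogs of a family were assigned is not given in the sources used here.

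Zeb1 (Entrez 21417), a zinc finger and homeodomain repressor that binds E-boxes and recruits CtBP corepressors, had 6.76, 9.01, 7.50 and 8.21 TPM in hSKP2-KI and 4.21, 5.35, 5.16 and 5.01 TPM in WT libraries. The genotypes did not overlap on either scale, and the standard error of the difference was the smallest among the 6 transcription factors. Of all tested genes, 34% were higher in every hSKP2-KI library on TPM as deposited and 10.3% after median-ratio scaling. The log2 fold change was 0.58 (SE 0.11, limma adjusted p = 0.00554), and it was 0.35 after median-ratio scaling (interval 0.15 to 0.55, limma adjusted p = 0.0357). That second call was kept only without hSKP2-KI replicate 1, and with each of the other 7 libraries left out the adjusted p was between 0.0529 and 0.0857. Under quantile normalization the adjusted p was 0.0663, and without the 20 most abundant genes it was 0.0587.

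Zeb2 (Entrez 24136; chromosome 2, 44983512 to 45117442), the second member of the family, had 2.91, 6.45, 4.99 and 5.25 TPM in hSKP2-KI and 1.86, 2.95, 2.47 and 2.55 TPM in WT libraries. Replicate 1 of hSKP2-KI was below WT replicate 2, and the other 3 were above all WT libraries. Zeb2 rose by the largest fold of the 6 factors on TPM as deposited, 0.74 (SE 0.19, limma adjusted p = 0.0149), and the value after median-ratio scaling was 0.54 (interval 0.16 to 0.92, limma adjusted p = 0.0690). Zeb1 accounted for 58.3 to 69.9% of the summed Zeb TPM in hSKP2-KI and 64.4 to 69.3% in WT libraries. The antisense RNA Zeb2os overlaps Zeb2 and was listed at 0.268 to 1.26 TPM, and since the strand setting of the counting is not given, reads of the 2 genes cannot be told apart. Transcripts that overlap Twist2 (Gm46117) and Zeb1 (Gm10125) did not exceed 0.177 TPM.

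**Figure D2:**
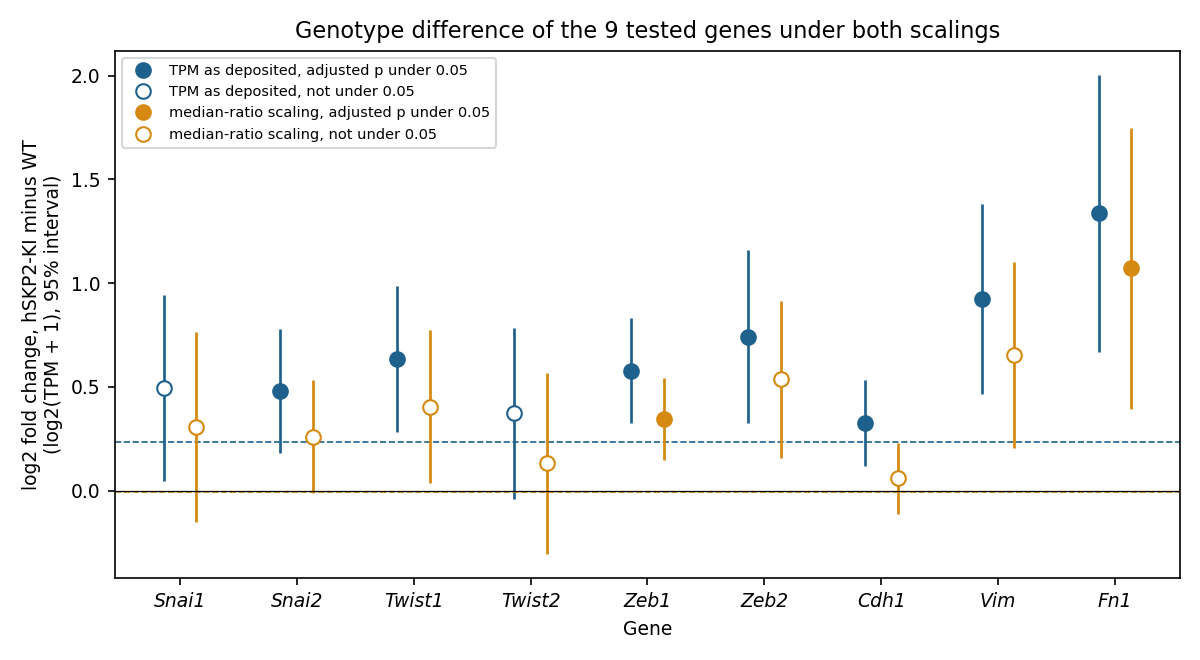
log2 fold change (hSKP2-KI minus WT) of the 9 tested genes on the log2(TPM + 1) scale with 95% intervals from limma, on TPM as deposited and after median-ratio scaling, with filled points for an adjusted p under 0.05 and dashed lines at the median of all tested genes on each scale. Fn1 has the highest estimate on both scales (1.34 and 1.07), and Cdh1 moves from 0.33 to 0.06.

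Cdh1 (Entrez 12550; chromosome 8, 106603350 to 106670247), which encodes E-cadherin, the main adhesion molecule of adherens junctions in epithelium, was not called lower in hSKP2-KI prostates on either scale. It measured 168.6, 144.6, 165.5 and 170.9 TPM in hSKP2-KI and 110.4, 145.4, 131.7 and 130.7 TPM in WT libraries, and only replicate 2 of hSKP2-KI came within the WT range. The log2 fold change was 0.33 (SE 0.09, 95% interval 0.12 to 0.53, limma adjusted p = 0.0238), only 0.09 more than the median gene. After median-ratio scaling it was 0.06, with an interval from -0.11 to 0.23 (limma adjusted p = 0.668). The call on TPM as deposited was lost without hSKP2-KI replicate 1 (adjusted p = 0.0514), without hSKP2-KI replicate 4 (0.0613) and without WT replicate 1 (0.0556), with positive values throughout.

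Cdh2 (Entrez 12558), which encodes N-cadherin, the cadherin of neural and many mesenchymal cells, was near the bottom of the measured range. Its TPM was 0.215, 0.166, 0.147 and 0.283 in hSKP2-KI and 0.110, 0.128, 0.147 and 0.104 in WT libraries. Too low for the limma fit, it was compared by a two-sided exact permutation test over 70 assignments, in which the mean log2(TPM + 1) was 0.10 higher in hSKP2-KI (p = 0.0286, the smallest p that 4 against 4 allows). The lowest hSKP2-KI library exceeded the highest WT library by 0.000572 TPM, and the genotypes overlapped after median-ratio scaling (exact permutation p = 0.143). At these levels, with an unknown number of reads behind them, the separation of the genotypes depended on the scaling.

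A ratio of 2 genes within a library does not depend on how the library is scaled, apart from the constant added before taking logs. That constant, 0.1, was small beside the other genes used but near the level of Cdh2 itself. The ratio with Cdh2 therefore depends on the constant and, through it, on the scaling. In all, 4 such ratios were tested, with Benjamini-Hochberg adjustment over the 4. Cdh2 amounted to 0.0889 to 0.166% of the Cdh1 TPM in hSKP2-KI and to 0.0795 to 0.111% in WT libraries. The log2 ratio of Cdh2 to Cdh1, with 0.1 added to each TPM, was -9.09 ± 0.24 (SD, n = 4) in hSKP2-KI and -9.19 ± 0.16 (SD, n = 4) in WT libraries, which differ by 0.10 with overlapping genotypes (two-sided exact permutation p = 0.657, adjusted p = 0.657). Its sign turned with the added constant, to -0.23 when 1 was added (exact permutation, adjusted p = 0.114). The percentages, which hold no added constant, overlapped as well. With Cdh2 this near the constant and the number of reads unknown, the ratio cannot decide whether RNA shifted from E- to N-cadherin.

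The ratio of Vim to Cdh1 set the genotypes apart. The TPM of Vim divided by that of Cdh1 was 0.845, 2.15, 0.952 and 1.03 in hSKP2-KI and 0.808, 0.786, 0.655 and 0.811 in WT libraries, so all 4 hSKP2-KI libraries were above all WT libraries. The log2 ratio differed by 0.60, or 1.52-fold, with an exact permutation p of 0.0286, the smallest possible, but it did not pass after adjustment over the 4 ratios (adjusted p = 0.114). Given the p-values of the other ratios, no separation of this ratio could have reached a lower adjusted p, so the adjustment cannot decide. Without hSKP2-KI replicate 2, where Vim was 2.15 times Cdh1, the difference was 0.30.

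**Figure D3:**
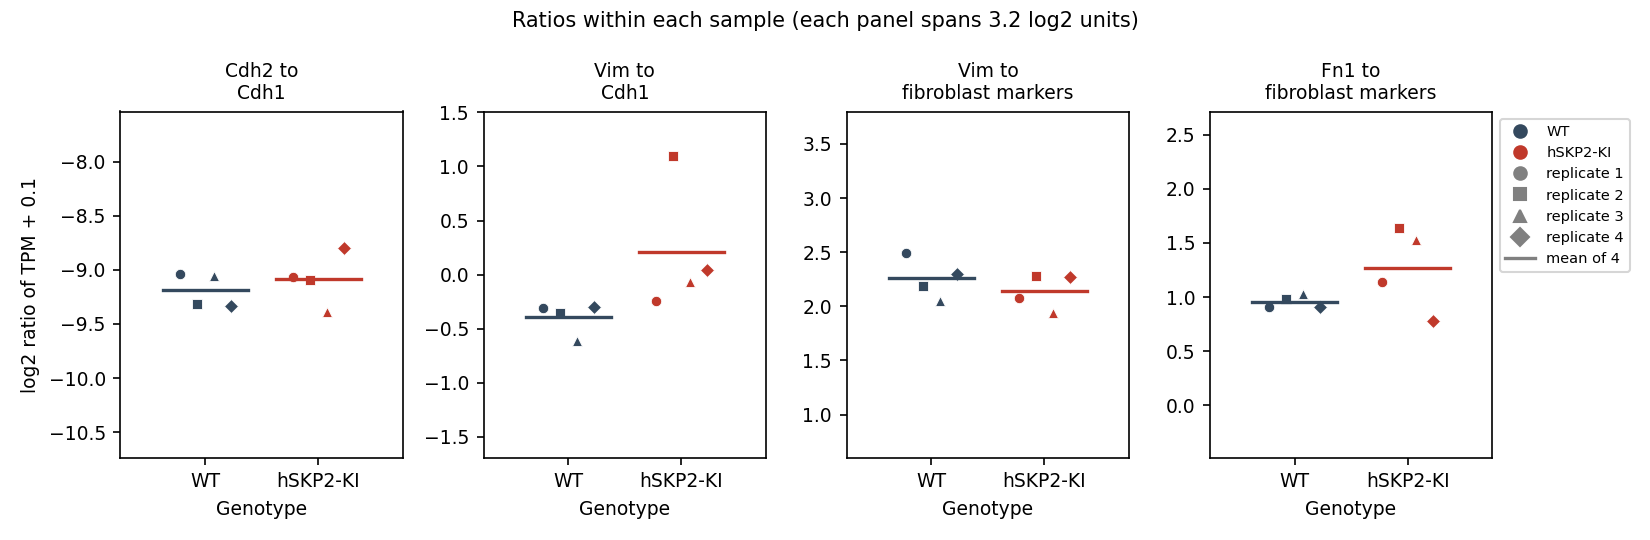
log2 ratios within each library, with 0.1 added to each TPM, by genotype (points are mice, lines are means of 4): Cdh2 to Cdh1, Vim to Cdh1, and Vim and Fn1 to the mean of 8 fibroblast markers. Of these 4, only Vim to Cdh1 separates the genotypes, by 0.60 on the log2 scale.

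Vim (Entrez 22352; chromosome 2, 13574311 to 13582826) encodes vimentin, the intermediate filament protein of mesenchymal cells, and is one of the genes that the study itself singled out on these samples, so its direction here is not independent evidence. Its start region is shown because Vim is the only one of the mesenchymal genes in the promoter table. The 250 bases before the start (GRCm38.p6, chr2:13574061-13574310, plus strand) have TATAAA in capitals, at 32 to 27 bases before the start, and held neither an E-box of the form CANNTG nor a GC box.
Vim: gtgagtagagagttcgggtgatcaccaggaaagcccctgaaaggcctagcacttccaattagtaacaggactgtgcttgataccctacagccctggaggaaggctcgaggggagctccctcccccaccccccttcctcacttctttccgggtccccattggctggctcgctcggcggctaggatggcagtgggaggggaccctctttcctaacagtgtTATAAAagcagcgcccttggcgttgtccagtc
Vim TPM was 142.5, 310.7, 157.5 and 175.5 in hSKP2-KI and 89.2, 114.3, 86.2 and 106.0 in WT prostates. The genotypes did not overlap on either scale, and replicate 2 of hSKP2-KI stood well above the other 3. On TPM as deposited 34% of tested genes were apart in the upward direction. After median-ratio scaling 10.3% were apart in the upward and 8.91% in the downward direction. The log2 fold change was 0.92 (SE 0.21, limma adjusted p = 0.00925). After median-ratio scaling it was 0.65 (interval 0.21 to 1.10) and missed the threshold (limma adjusted p = 0.0643), while without hSKP2-KI replicate 2 the scaled value was lower, at 0.42, and passed it (adjusted p = 0.0307).

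Fn1 (Entrez 14268; chromosome 1, 71585473 to 71653280), which encodes fibronectin, a glycoprotein of the extracellular matrix that cells grip through integrins, had the largest log2 fold change of the 9 tested genes. TPM was 73.9, 199.6, 118.0 and 62.4 in hSKP2-KI and 29.8, 49.3, 42.6 and 40.4 in WT libraries. All 4 hSKP2-KI libraries were above all WT libraries, as for 34% of tested genes on TPM as deposited, and the mean TPM was 2.80 times as high. The log2 fold change was 1.34 (SE 0.30, 95% interval 0.67 to 2.00, limma adjusted p = 0.00962) on TPM as deposited and 1.07 (interval 0.39 to 1.75, limma adjusted p = 0.0498) after median-ratio scaling. The latter call sat at the threshold: the adjusted p ranged from 0.0284 to 0.117 when single libraries were left out and stayed under 0.05 only without hSKP2-KI replicate 4.

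Replicate 2 of hSKP2-KI was the highest of its genotype for 8 of the 9 tested genes and the lowest for Cdh1. It also had the highest fibroblast and macrophage marker means. Without it, the log2 fold change on TPM as deposited was 0.68 for Vim (limma adjusted p = 0.00558) and 1.02 for Fn1 (limma adjusted p = 0.0108). The calls of Twist1, Zeb1, Zeb2, Vim and Fn1 on that scale were kept with each of the 8 libraries left out in turn.

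Markers of stromal and immune cells were higher in the same libraries. The mean log2(TPM + 1) of the 8 fibroblast markers was 5.13 to 6.03 in hSKP2-KI and 4.11 to 4.72 in WT libraries, and their summed level was 703 to 1125 TPM against 370 to 529 TPM. All 8 of these markers were called higher on TPM as deposited, beside 32.7% of all tested genes. After median-ratio scaling 4 of them were called higher, beside 6.92%. The means of 7 smooth muscle markers (6.97 to 7.41 against 6.26 to 6.57), 6 endothelial markers (2.96 to 3.57 against 2.38 to 2.78) and 7 macrophage markers (4.49 to 5.62 against 3.41 to 4.49, the closest libraries being alike to 2 decimals) were also higher in all hSKP2-KI libraries. Of these 3 lists, 7, 5 and 6 markers were called higher on TPM as deposited. After median-ratio scaling 5, 2 and 0 were called higher, read beside the same shares of all tested genes. Mesothelial markers had a mean of 0.56 to 1.76 in hSKP2-KI and 0.06 to 0.28 in WT libraries, and those of T cells and neuroendocrine cells did not overlap between genotypes either, at means of at most 1.53 and 1.20. These separations of marker means were on TPM as deposited, where 34% of single tested genes were higher in all hSKP2-KI libraries. Whether the means stayed apart after median-ratio scaling was not tested. The 6 epithelial markers, by contrast, overlapped at 8.17 to 8.37 against 7.92 to 8.22, as the highest of the marker means in every library, and their difference was 0.19 on TPM as deposited and -0.08 after median-ratio scaling. Basal epithelial, B cell, Schwann cell, adipocyte, skeletal muscle and pan-leukocyte markers overlapped, and seminal vesicle markers summed to at most 0.656 TPM, with Svs2 at 0 in all libraries. The part of these cells in the results on the 10 genes was not tested.

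**Figure D4:**
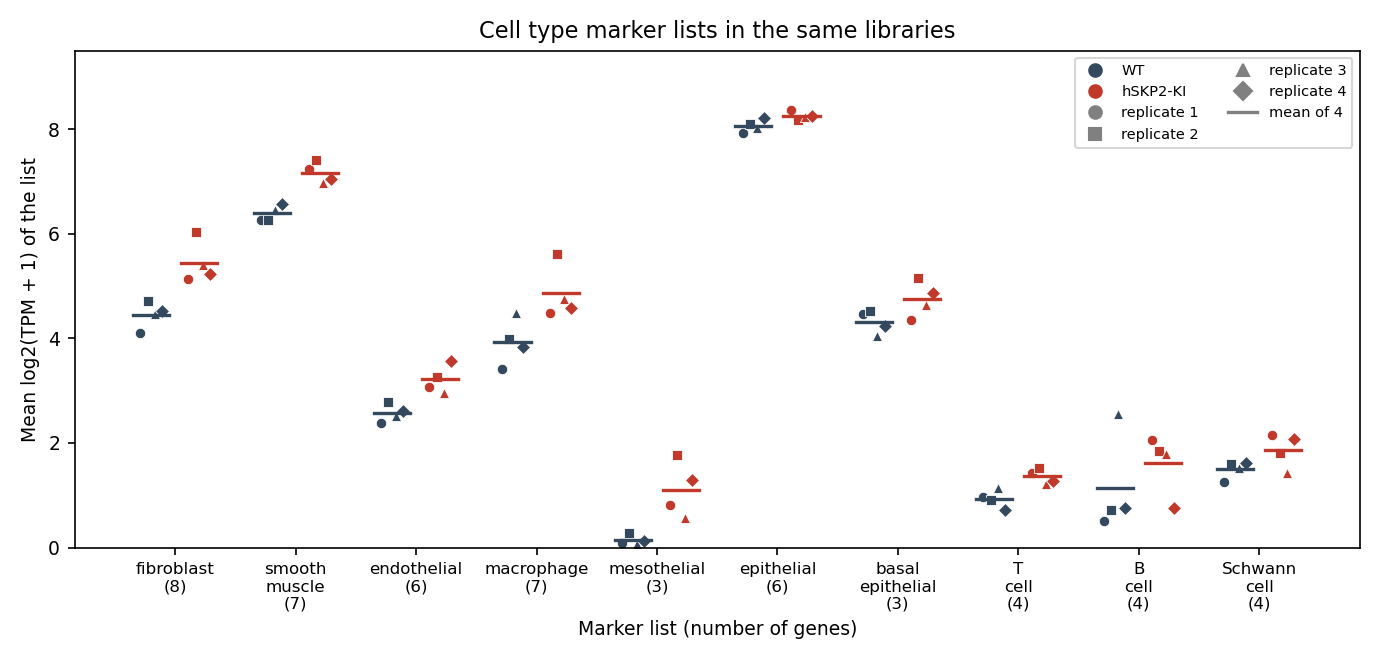
Mean log2(TPM + 1) of 10 of the lists of cell type markers in the 8 libraries, by genotype (points are mice, lines are means of 4). On TPM as deposited, fibroblast, smooth muscle, endothelial and macrophage means are higher in all hSKP2-KI than in all WT libraries, and the epithelial means overlap.

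Set against these markers within each library, the 10 genes took different places. Vim relative to the fibroblast markers was 2.14 ± 0.16 (SD, n = 4) on the log2 scale in hSKP2-KI and 2.26 ± 0.19 (SD, n = 4) in WT libraries, which overlapped at a difference of -0.11 (exact permutation p = 0.429, adjusted p = 0.571). Fn1 relative to the same markers was 1.27 ± 0.39 against 0.96 ± 0.06, a difference of 0.31 with 3 of 4 hSKP2-KI libraries above all WT libraries (exact permutation p = 0.229, adjusted p = 0.457). As a description with no test, the 6 transcription factors relative to the fibroblast markers differed by -0.63 (Twist2) to -0.11 (Zeb2), all with overlap. Relative to the epithelial markers, Zeb1 (0.47), Vim (0.74) and Fn1 (1.17) were higher in all hSKP2-KI libraries, and Cdh1 overlapped at a difference of 0.14. Cdh1 was lower in all hSKP2-KI libraries relative to the fibroblast (-0.71), smooth muscle (-0.46) and endothelial (-0.41) markers.

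Other genes of the EMT program were read in lists from the same limma fit. Of 10 further EMT transcription factors, 7 were tested and 5 were higher, with 0 lower, a share to be read beside the 32.7% of all genes. The largest rises were those of Prrx1, a homeobox factor of limb and connective tissue mesenchyme (7.56 ± 1.38 against 3.49 ± 0.597 TPM, SD, n = 4; log2 fold change 0.93, limma adjusted p = 0.00210), and Prrx2 (0.78, limma adjusted p = 0.0318). Prrx1 was the only one called after median-ratio scaling (0.71, limma adjusted p = 0.00804). Sox4 (0.50) and Sox9 (0.48) were among the others that rose, while Snai3, Foxc2 and Gsc were too low to test.

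The Id genes, whose products bind the E proteins that Twist factors pair with and keep them off DNA, rose in 3 of 4 cases. Id1 had 30.4 ± 3.21 TPM in hSKP2-KI and 11 ± 4.46 TPM in WT prostates (SD, n = 4), a log2 fold change of 1.45 (limma adjusted p = 0.00152) and of 1.20 after median-ratio scaling (limma adjusted p = 0.00503). Id2 (0.78, and 0.52 after scaling) and Id3 (1.06, and 0.80 after scaling) were called on both scales as well, and Id4 was not (0.35, limma adjusted p = 0.165). Of the E proteins themselves, Tcf3 (0.34) and Tcf4 (0.37) were called on TPM as deposited only, and Tcf12 (0.15) was not called. In all, 5 of the 7 genes of this list were higher, beside 32.7% of all tested genes, 3 after median-ratio scaling, beside 6.92%, and the same 3 under all scalings, beside 4.83%. Among 8 corepressors that Snail and Zeb proteins recruit, Hdac2 (0.33) and Ctbp2 (0.30) were higher and none was lower, beside 32.7 and 1.23% of all tested genes, and 0 were called after median-ratio scaling, where the median of the list was -0.03.

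Over all tested genes, 32.7% were called higher and 1.23% lower on TPM as deposited, and the epithelial lists are read beside these shares. Of 8 tested regulators of epithelial identity, Klf4 (0.73, limma adjusted p = 0.0136) and Grhl2 (0.39, limma adjusted p = 0.0180) were higher and 0 were lower, with a list median of 0.04. After median-ratio scaling 0 were higher and 2 were lower, beside 4.25% of all tested genes: Esrp2, an epithelial splicing regulator (-0.37, limma adjusted p = 0.0172), and Grhl1, a grainyhead factor (-0.26, limma adjusted p = 0.0387). Of 20 junction genes, 6 were higher and 0 were lower, a share near that of all genes, and the 6 included F11r, a tight junction adhesion molecule (0.41, limma adjusted p = 0.00655), and Epcam, an epithelial adhesion molecule (379 ± 40.1 against 296 ± 51.6 TPM, SD, n = 4; 0.37, limma adjusted p = 0.0381). None of the 20 was called in either direction after median-ratio scaling, where the median was -0.10. Of 6 catenins and linkers that tie cadherins to actin, 4 were higher, led by Vcl (0.39) and Ctnnd1 (0.27), beside 32.7% of all genes. After median-ratio scaling none of these 4 was called, and Jup alone was lower (-0.23, limma adjusted p = 0.0309), beside 4.25% of all genes. Afdn is listed in the table under its older symbol Mllt4.

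Most mesenchymal genes rose on TPM as deposited. Of 19 tested, 16 were higher and 0 lower, beside 32.7 and 1.23% of all tested genes, with a median log2 fold change of 0.82. After median-ratio scaling 5 were called higher, beside 6.92% of all genes, and the median was 0.57. Lum, a collagen-binding proteoglycan (1.81, limma adjusted p = 0.000844), and S100a4, a calcium-binding protein of fibroblasts and macrophages (1.47, limma adjusted p = 0.00450), had the largest rises. The others called on both scales were Postn, Thy1 and Tgfbi. Thy1 is among the genes that the study picked on these samples, so its direction is not independent evidence. Tnc (0.31) and Pdgfrb (0.51) were among those tested and not called. Among the integrin genes for fibronectin receptors, Itga5 (0.81, limma adjusted p = 0.0122), Itgav (0.52, limma adjusted p = 0.0248) and Itgb1 (0.50, limma adjusted p = 0.00655) were higher on TPM as deposited, beside 32.7% of all genes, Itgb3 was not called (0.27), and Itga4 was too low to test. After median-ratio scaling 0 of these 4 were called.

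Of 21 other numbered cadherin genes, 5 were high enough to test. Cdh5, the cadherin of endothelium (0.78, limma adjusted p = 0.0135), Cdh13, a cadherin without an intracellular domain (0.78, limma adjusted p = 0.00449), and Cdh11, a cadherin of mesenchyme (0.50, limma adjusted p = 0.0396), were higher, beside 32.7% of all tested genes, and Cdh3, the P-cadherin of basal epithelium, was not called (0.30, limma adjusted p = 0.130). Cdh13 alone was called after median-ratio scaling (0.54, limma adjusted p = 0.0299).

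**Figure D5:**
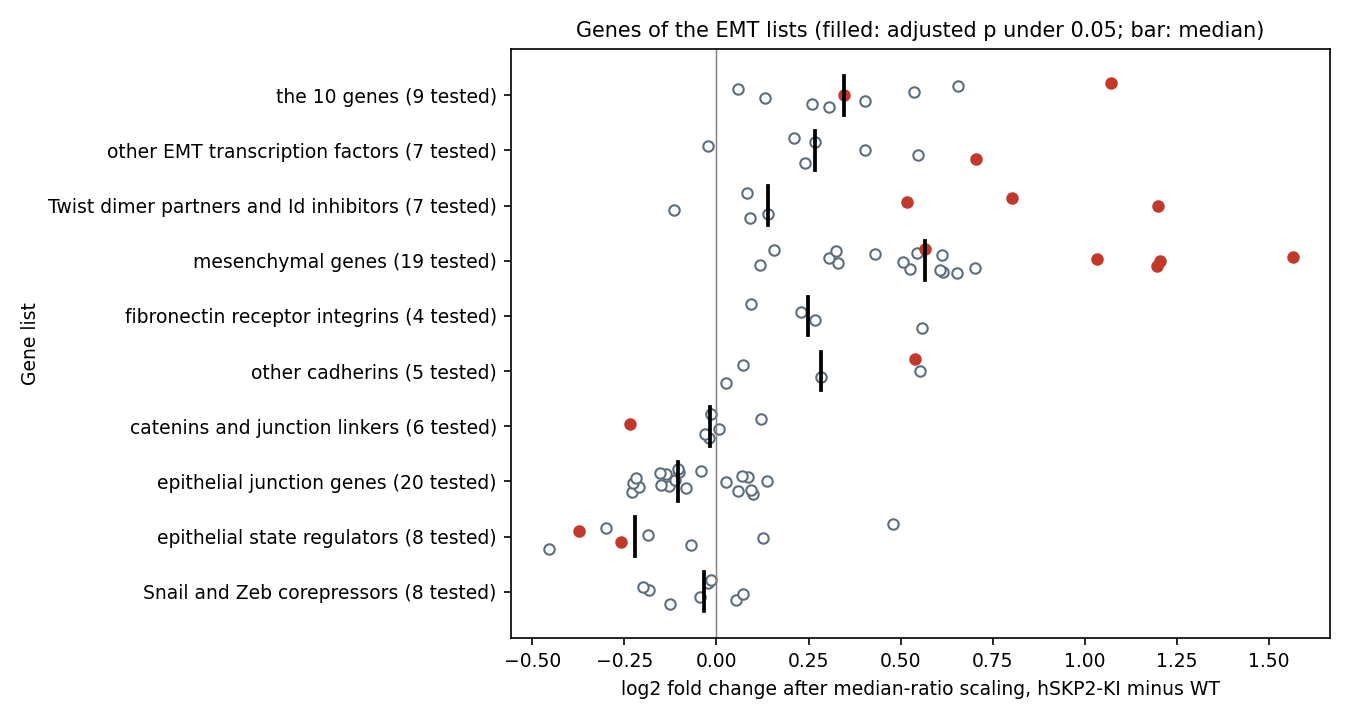
log2 fold change (hSKP2-KI minus WT) of each tested gene after median-ratio scaling, by list, with filled points for a limma adjusted p under 0.05 and a bar at the median of each list. The median is 0.57 for the mesenchymal genes, of which 5 are called higher, and -0.10 for the junction genes, of which 0 are called. Over all tested genes 6.92% are called higher and 4.25% lower on this scale.

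The genes whose pattern over the 8 libraries was most like that of each tested gene were found by the root-mean-square difference of mean-centred log2(TPM + 1), where 0 is an identical pattern. Zeb1 was closest to Fkbp9 (0.040), Kank2 (0.046) and Map4 (0.055), and Zeb2 to Pdgfra (0.082), Nrp1 (0.088) and Epb41l2 (0.102). Twist1 was closest to Lsm10 (0.091) and Rhoj (0.10), Twist2 to Zfp511 (0.125), Snai1 to Aplnr (0.129) and Snai2 to Asic2 (0.064). For Vim the nearest genes were Mgp (0.10), Ctsb (0.110) and Ednra (0.121), and for Fn1 they were Igfbp2 (0.187), Mfap4 (0.189) and Ahnak2 (0.212). Cdh1 had the closest neighbour of all, Zcchc2 (0.028), followed by Eif1a (0.037) and Cand2 (0.042). Pdgfra and Mfap4 are also in the fibroblast marker list, and all these patterns include the difference between the genotypes.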

How the data were processed

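Ventral prostate RNA of 4 hSKP2-KI and 4 WT mice was purified with poly-T beads and sequenced as paired ends. The authors trimmed and mapped the reads in CLC software and deposited 1 table of TPM for 36333 genes and 8 samples. The submitters' processing notes name mm10 and GRCm38. The CLC version, annotation and strand setting are not given in the sources used here. The paper states a nominal read number for the sequencing and gives none by library or gene. TPM holds no read counts, so the number of reads behind a value is unknown and no counting interval is given.

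Samples were grouped by the genotype in their labels. Genes with TPM of 1 or more in no fewer than 4 samples (13080) entered limma 3.58.1 (R 4.3.3) on log2(TPM + 1) with a mean-variance trend, and p-values were adjusted by Benjamini-Hochberg over all of them, with a threshold of 0.05. Cdh2 and the ratios were compared with exact permutation tests (SciPy 1.17.1), the ratios with a pseudocount of 0.1. The limma fit was tested on simulated data for 13080 genes: with 200 genes changed 2-fold, 93.5% were recovered and 6.5% of calls were false. The changed genes were drawn only from genes of higher level, above the means of Snai1, Snai2, Twist1, Zeb1 and Zeb2. Recovery of genes that low, or of changes under 2-fold, was not tested. The permutation tests were not part of that run. How the fit performs under a shift of most genes, such as the median of 0.23 on TPM as deposited, was not tested.

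The 10 genes, the gene lists and the marker lists were chosen with earlier results of these data known. All 10 genes were named, and so were the 2 largest rises and falls among called genes of a list, Cdh3, Cdh5, Cdh11, Epcam, the integrins and the 3 nearest genes by pattern. Other genes were named where a count of 5 or fewer needed them, after their values were seen. The alternatives were a pseudocount of 0.1 (1 for the ratios), no filter, a mean TPM of 5 or more, median-ratio scaling, quantile normalization, TPM without the 20 most abundant genes, the median of the fibroblast markers, a replicate block, each sample left out, and, chosen after seeing the data, median-ratio scaling with each sample left out. Positions and promoter sequences are from RefSeq on GRCm38.p6. Protein sequences were not used here. Some listed genes are not reported here by name.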

Additional observations from a re-analysis of the deposited data

Results flagged for a closer look

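In groups of 4 samples, the highest or lowest value was compared with the spread of the rest by Dixon's ratio at the 95% level in 58 groups, and 4 values from 3 mice stood apart, where chance gives about 1 in 20 groups. The log2 ratio of Vim to Cdh1 was lowest in WT replicate 3 at -0.61, with the other WT mice between -0.35 and -0.30. The same mouse had the highest mean of B cell markers, 2.55, with the others between 0.51 and 0.76. Without WT replicate 3 the difference in the Vim to Cdh1 ratio between the genotypes was 0.53 instead of 0.60. Skeletal muscle markers had a mean of 4.81 in WT replicate 2, against 2.24 to 2.67 in the other WT mice. Seminal vesicle markers had a mean of 0.20 in hSKP2-KI replicate 2 and of 0.00 in the other hSKP2-KI mice.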

How the results depend on the processing

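Of all genes tested, 4433 were called on TPM as deposited, 1461 after median-ratio scaling, 1317 after quantile normalization and 1321 without the 20 most abundant genes, and the calls among the 10 genes went from 7 to 2, 1 and 1 under the same 3 scalings. By construction, these scalings remove most of the shift of 0.23 in the median of all genes. In that order, the counts were 1, 1 and 1 against 5 for the other EMT transcription factors, 3, 3 and 3 against 5 for the Twist partners and Id genes, 0, 0 and 0 against 2 for the corepressors, 0, 0 and 0 against 6 for the junction genes, 1, 0 and 0 against 4 for the catenins and linkers (the 1 is Jup, as lower, and none of the 4), 0, 0 and 0 against 3 for the integrins, 5, 6 and 5 against 16 for the mesenchymal genes, and 1, 1 and 1 against 3 for the other cadherins. For the epithelial state regulators the 2 called higher gave way to 2 called lower after median-ratio scaling, and quantile normalization and leaving out the 20 genes gave 1 and 1 in place of 2. With no filter on low values 2 other EMT factors, 1 corepressor, 3 junction genes, 2 catenins and linkers and 9 mesenchymal genes were called, and the cause was not tested. The ratio of Cdh2 to Cdh1 turned to -0.23 with a pseudocount of 1 (exact permutation, adjusted p = 0.114), since 1 is far above the TPM of Cdh2.

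With each sample left out in turn, 2993 to 4677 genes in all and 5 to 8 of the 10 genes were called. Of the 10 genes, the fewest were called without WT replicate 1 and the most without hSKP2-KI replicate 3. The list counts were 1 to 7 for the other EMT factors (1 without WT replicate 1 or 3, 2 without hSKP2-KI replicate 2), 3 to 5 for the Twist partners and Id genes (3 without hSKP2-KI replicate 2 or 4 or WT replicate 1 or 3), 0 to 2 for the corepressors (0 without hSKP2-KI replicate 3 or 4 or WT replicate 3), 2 to 5 for the junction genes (2 without hSKP2-KI replicate 2 or 4 or WT replicate 1), 1 to 4 for the catenins and linkers (1 without hSKP2-KI replicate 4), 2 to 3 for the integrins, 9 to 17 for the mesenchymal genes (9 without WT replicate 1), 2 to 3 for the other cadherins and 2 throughout for the epithelial state regulators. After median-ratio scaling with each sample left out, the counts were 1131, 944, 1291 and 840 genes in all without hSKP2-KI replicates 1 to 4, 789, 1012, 974 and 933 without WT replicates 1 to 4, 0 to 2 of the 10 genes, 1 to 2 other EMT factors, 2 to 3 Twist partners and Id genes, 0 corepressors and junction genes, 1 to 2 epithelial state regulators, 0 to 1 catenins and linkers, 0 to 1 integrins, 2 to 5 mesenchymal genes and 0 to 2 other cadherins. The ratios kept their sign in the same runs, at 0.01 to 0.20 for Cdh2 to Cdh1, 0.30 to 0.75 for Vim to Cdh1, -0.18 to -0.04 for Vim to fibroblast markers and 0.19 to 0.48 for Fn1 to fibroblast markers. The difference in Cdh2 was 0.067 to 0.121 with a sample left out, where 3 against 4 cannot give an exact permutation p under 0.0571, and 0.062 after median-ratio scaling (exact permutation p = 0.143).

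The replicate numbers are not stated to pair the mice, and the correlations between same-numbered samples after removing genotype means were 0.22, -0.11, 0.17 and -0.01 across genes, so the numbers were not treated as pairs. With the replicate block 7 of the 10 genes were called and 5128 genes in all, and the Cdh2 difference of 0.099 had an exact p of 0.125, the smallest that 16 sign changes allow. For the 9 tested genes of the 10, 128 repeats under other settings kept their direction and their side of the threshold, 75 lost the call, 1 gained it and none changed sign.

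Without read counts, the precision of low values such as those of Cdh2, Snai1 and Zeb2 cannot be given, and with 4 mice per genotype small changes can be missed.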
